A study of Mus musculus with 20 samples.

Results

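The NRF2 sensor and transcription factor circuit was followed through 10 genes, listed by name as regulators of the antioxidant response. They comprised the activator Nfe2l2 (NRF2), its relatives Nfe2l1 (NRF1) and Nfe2l3 (NRF3), the sensor Keap1, the KEAP1 ligand Sqstm1 (p62), the small MAF partners Mafg, Mafk and Maff, and the repressors Bach1 and Bach2. All 10 were among the 39179 genes of the count tables, and all 10 had counts high enough to be tested, as did 12671 genes in all. RNA was sequenced from immortalised mouse epithelial cells of kidney, strain C57BL/6J, in 20 libraries that formed 4 groups of 5. Fh1 codes for fumarate hydratase, which turns fumarate into malate in the TCA cycle. Fh1_fl_fl cells carry the genotype label Fh1 wt, clone1 and clone19 both carry the label Fh1 deletion, and Rec cells carry the label Fh1 wt re-expressed. Growth conditions were common to all 4 groups: DMEM with serum and added uridine. The clones are 1 line each, so a property of a line and an effect of its Fh1 label cannot be told apart. The labels do not give the deleted part of Fh1, the clone from which Rec was made or the construct it received, nor do they say whether libraries within a group are separate cultures. The p-values therefore measure the spread between these libraries, which may be technical.

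NRF2 is made and destroyed continuously in unstressed cells: KEAP1 binds it and presents it to a CUL3 ubiquitin ligase. Electrophiles, fumarate among them, can modify cysteines of KEAP1, after which NRF2 escapes destruction and enters the nucleus. There it pairs with a small MAF protein on antioxidant response elements (AREs), where BACH1 and BACH2 compete for the same partners and sites. Most of this control acts on proteins, which counts of mRNA do not show.

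Each library held 5988447 to 18972176 gene counts. Levels are given as CPM, counts set to a common library size with TMM factors (the trimmed mean of log ratios between libraries), and a level of 3 counts equals 0.147 to 0.525 CPM, depending on the library. The replicate 3 library of clone19 stood apart from the others of its group: 8.20% of its counts fell on 1 gene, Gm42418, against a median of 0.314% over the 20 libraries. Fh1 itself did not separate the labels, with 84.7 to 97.2 CPM for Fh1_fl_fl, 108 to 123 for clone1, 73.6 to 91.6 for clone19 and 63.9 to 80.8 for Rec, so that clone1, labelled Fh1 deletion, was the highest group. This count covers the whole gene and the deleted part is not given, so it does not check the labels, and every direction below is a difference between labelled groups. The 9 kidney tubule epithelium markers all averaged at least 1 CPM in each group. Their summed level ran from 3524 to 4076 CPM for Fh1_fl_fl, 2725 to 3363 for clone1, 2141 to 2451 for clone19 and 4372 to 4821 for Rec. Single markers moved both ways. Between Fh1_fl_fl and clone1, mean Epcam went from 439 to 86.7 CPM and Pax2 from 272 to 45.4. Krt19 went from 348 to 639 CPM and Pax8 from 194 to 371. Summed markers of other cells were low: 7 fibroblast markers gave at most 1.66 CPM for Fh1_fl_fl, 6.93 for clone1, 15.3 for clone19 and 1.87 for Rec, with Pdgfrb, Lum and Thy1 at 0 throughout. The 6 endothelial markers reached at most 9.80 CPM, in clone19, and the 7 leukocyte markers ran from 45.8 to 52.4 CPM in Fh1_fl_fl and from 19.9 to 31.7 CPM over the other groups. Most of the leukocyte sum in Fh1_fl_fl was Csf1r, with a mean of 43.5 CPM, and Ptprc averaged 0.519 CPM there. The part of these marker differences in the results was not tested, and in bulk RNA fewer cells of a type and less RNA per cell cannot be told apart.

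Among the 10 regulators, 9 differed between clone1 and Fh1_fl_fl, 6 higher and 3 lower (edgeR quasi-likelihood test, adjusted p under 0.05). Of all tested genes 78.6% were called in that comparison, 38% higher and 40.5% lower, so the count alone does not set the regulators apart. In clone19, 6 rose and 2 fell with 72.9% of all genes called, 36.8% higher and 36.1% lower. In Rec, 4 rose and 3 fell, with 70.8% of all genes called, 33.4% higher and 37.4% lower. These 3 comparisons share the same 5 Fh1_fl_fl libraries. The sizes differed more than the counts: the median absolute log2 fold change of the regulators was 1.44 in clone1 against 0.58 over all tested genes, 0.52 against 0.48 in clone19 and 0.33 against 0.44 in Rec.

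**Figure D1:**
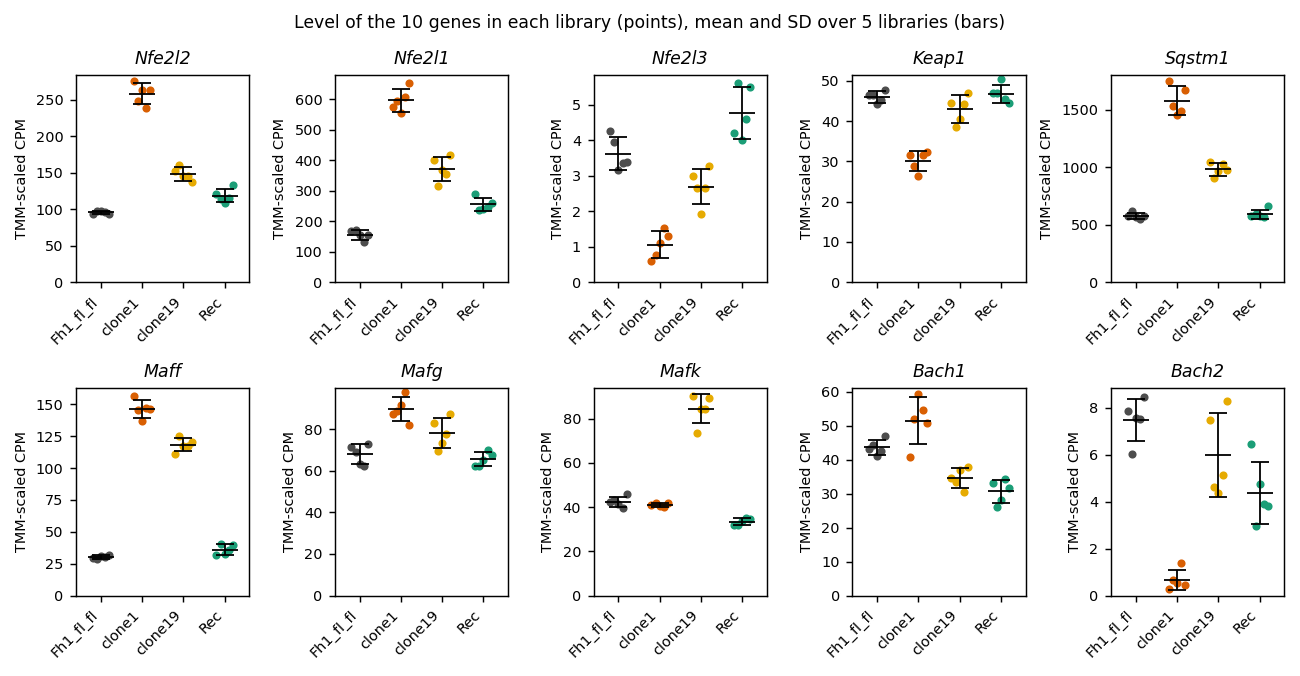
Level of each of the 10 regulators in every library (CPM, linear axes that start at 0), with 1 point per library and bars at the mean and SD of each group of 5. Nfe2l2, Nfe2l1, Sqstm1 and Maff share 1 order, clone1 above clone19 above Rec above Fh1_fl_fl, although Rec and Fh1_fl_fl overlap for Sqstm1, and Mafk is high in clone19 alone.

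Nfe2l2 (ENSMUSG00000015839; GRCm38 chromosome 2, 75675513 to 75704641, minus strand) encodes NRF2 itself. Its level was 94.0, 97.8, 97.8, 96.2 and 93.3 CPM in the 5 Fh1_fl_fl libraries and 276, 249, 264, 239.6 and 264 CPM in clone1. In clone19 it was 153, 161, 146, 145 and 137 CPM, and in Rec 121, 115, 109, 115 and 133 CPM. No library of one group overlapped a library of another, and the groups ranked clone1, clone19, Rec, Fh1_fl_fl. Nfe2l2 rose 2.70-fold in clone1 (log2 fold change 1.43, SE 0.06, edgeR adjusted p = 5.77e-18) and 1.55-fold in clone19 (0.63, SE 0.06, adjusted p = 3.05e-10). Rec lay above Fh1_fl_fl by 0.31 on the log2 scale (SE 0.06, edgeR adjusted p = 3.8e-05) and below clone1 and clone19, with log2 fold changes of -1.12 and -0.32 (adjusted p = 1.03e-15 and 2.23e-05). All 3 steps between neighbouring groups in this order thus passed the test.

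Nfe2l1 (ENSMUSG00000038615; chromosome 11, 96817414 to 96829968, minus strand) encodes NRF1, a factor anchored in the endoplasmic reticulum that is cut and released to drive proteasome genes. Its level was 168, 171, 154, 131 and 153 CPM in Fh1_fl_fl and 575, 594, 555, 605 and 654 CPM in clone1. In clone19 it was 399.8, 314, 369, 354 and 417 CPM, and in Rec 289, 238, 240.4, 247 and 261 CPM. As for Nfe2l2, the 4 groups did not overlap and stood in the same order. Nfe2l1 rose 3.84-fold in clone1 (log2 fold change 1.94, SE 0.08, edgeR adjusted p = 4.02e-18), 2.39-fold in clone19 (1.26, SE 0.08, adjusted p = 6.93e-14) and 1.64-fold in Rec (0.72, SE 0.08, adjusted p = 4.74e-09). The rise was larger than that of Nfe2l2 in each of the 3 comparisons, a difference that was not tested.

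Nfe2l3 (ENSMUSG00000029832; chromosome 6, 51432670 to 51458768, plus strand), the least abundant of the 3 activators, moved the other way in clone1. Its level was 4.26, 3.95, 3.16, 3.37 and 3.39 CPM in Fh1_fl_fl and 0.598, 0.775, 1.1, 1.53 and 1.30 CPM in clone1. In clone19 it was 2.99, 2.65, 1.93, 2.66 and 3.28 CPM, and in Rec 4.21, 5.60, 4.01, 4.59 and 5.50 CPM. Clone1 lay wholly below the other groups, while clone19 and Rec both overlapped Fh1_fl_fl. Nfe2l3 fell 3.53-fold in clone1 (log2 fold change -1.82, SE 0.22, edgeR adjusted p = 1.85e-08). The differences in clone19 (log2 fold change -0.41, SE 0.18, edgeR adjusted p = 0.0458) and Rec (0.40, SE 0.16, adjusted p = 0.0265) passed narrowly. The clone19 call was lost in 12 of 28 alternative settings and the Rec call in 7 of 28, with adjusted p up to 0.145 and 0.146 respectively.

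Keap1 (ENSMUSG00000003308; chromosome 9, 21229730 to 21239361, minus strand), the cysteine-rich sensor that holds NRF2, was called lower in clone1. Its level was 46.5, 46.4, 44.2, 45.1 and 47.8 CPM in Fh1_fl_fl and 31.6, 29, 26.4, 31.6 and 32.5 CPM in clone1. The clone19 libraries gave 44.6, 38.5, 40.6, 44.3 and 47.0 CPM, and those of Rec 47.0, 47.0, 50.4, 45.4 and 44.5 CPM. Clone1 was apart from the other 3 groups, which overlapped one another. Keap1 fell 1.52-fold in clone1 (log2 fold change -0.61, SE 0.07, edgeR adjusted p = 5.53e-09). The clone19 log2 fold change was -0.10 (95% interval -0.23 to 0.04, edgeR adjusted p = 0.195) and that of Rec 0.03 (-0.11 to 0.16, adjusted p = 0.728). The direct comparison of the clones gave -0.51 (SE 0.07, edgeR adjusted p = 3.98e-07). The 71 other tested genes within 5 Mb of Keap1 had a median of -0.54 in that comparison. With scaling to library totals, Keap1 in clone19 was called lower, at -0.22 (adjusted p = 0.00929). The antisense gene Gm16754 shares 510 exonic bases with Keap1, and the strand setting of the counting is not given. Gm16754 averaged 0.469 CPM for Fh1_fl_fl, 1.82 for clone1 and 3.66 for clone19. It was called higher in both clones, with log2 fold changes of 1.87 and 2.86 (edgeR adjusted p = 1.1e-06 and 1.26e-10). Its part in the Keap1 counts was not tested.

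Sqstm1 (ENSMUSG00000015837; chromosome 11, 50199366 to 50210827, minus strand) encodes p62, an autophagy receptor that binds KEAP1 at the surface used by NRF2 and is itself a known NRF2 target. It was the most abundant of the 10 regulators per kilobase of exon in every group. Its level was 577, 617, 565, 548 and 577 CPM in Fh1_fl_fl and 1744, 1528, 1449, 1488 and 1672 CPM in clone1. Levels in clone19 were 1043, 903, 962, 1023 and 975 CPM, and those in Rec 572, 592, 572, 562 and 658 CPM. Both clones lay above every Fh1_fl_fl and Rec library, and Rec overlapped Fh1_fl_fl. Sqstm1 rose 2.73-fold in clone1 (log2 fold change 1.45, SE 0.06, edgeR adjusted p = 1.25e-17) and 1.70-fold in clone19 (0.77, SE 0.06, adjusted p = 1.29e-11). In Rec the log2 fold change was 0.04 (95% interval -0.09 to 0.16, edgeR adjusted p = 0.611), and with scaling to library totals it took the other sign, at -0.10 (adjusted p = 0.186). Nfe2l2 and Nfe2l1 passed the test above Fh1_fl_fl in Rec and Sqstm1 did not, and the difference between these genes was not itself tested. The overlapping antisense gene Mrnip averaged 3.69 to 6.33 CPM over the groups.

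The small MAF proteins bind DNA but carry no activation domain of their own, and NRF2 and BACH proteins need one of them as a partner. Maff (ENSMUSG00000042622; chromosome 15, 79346621 to 79359076, plus strand) showed the largest rise of the 10 regulators in both clones. Its level was 29.2, 28.7, 31.3, 30.2 and 31.8 CPM in Fh1_fl_fl and 157, 146, 137, 147 and 147 CPM in clone1. For clone19 the values were 111, 125, 117, 117 and 120 CPM, and for Rec 32.0, 40.2, 32.2, 36.1 and 39.9 CPM. The groups did not overlap, and Rec stood just above Fh1_fl_fl, far below both clones. Maff rose 4.85-fold in clone1 (log2 fold change 2.28, SE 0.07, edgeR adjusted p = 4.07e-21) and 3.91-fold in clone19 (1.97, SE 0.07, adjusted p = 2.3e-19). Of all tested genes 90.7% had a smaller absolute change in clone1 and 91.4% in clone19. The Rec log2 fold change of 0.26 (SE 0.07, edgeR adjusted p = 0.00165) was not called with scaling to library totals (0.12, adjusted p = 0.119).

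Mafk (ENSMUSG00000018143; chromosome 5, 139791513 to 139802653, plus strand) separated the clones. Its level was 42.1, 43.3, 41.2, 39.6 and 45.8 CPM in Fh1_fl_fl and 40.7, 41.7, 40.6, 40.2 and 42.0 CPM in clone1. Clone19 had 90.1, 73.6, 84.5, 84.4 and 89.4 CPM, and Rec had 31.9, 32.0, 33.8, 35.0 and 34.6 CPM. Clone19 was the high group, Rec was the low group, and clone1 lay within the Fh1_fl_fl range. Mafk rose 1.99-fold in clone19 (log2 fold change 0.99, SE 0.06, edgeR adjusted p = 5.39e-14) and fell by 0.34 on the log2 scale in Rec (SE 0.06, adjusted p = 2.28e-05). In clone1 the log2 fold change was -0.05 (95% interval -0.17 to 0.08, edgeR adjusted p = 0.504). That value became -0.19 with scaling to library totals (adjusted p = 0.015) and 0.02 without Fh1_fl_fl replicate 5. The clones differed by -1.04 (SE 0.06, edgeR adjusted p = 5.7e-14). The neighbour Tmem184a on the opposite strand shares 169 exonic bases with Mafk. It averaged 31.6 CPM for Fh1_fl_fl, 6.65 for clone1, 33.8 for clone19 and 19.9 for Rec, and its part in the Mafk counts was not tested.

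Mafg (ENSMUSG00000051510; chromosome 11, 120625117 to 120633600, minus strand) varied least of the 3. Its level ranged from 62.5 to 73.1 CPM in Fh1_fl_fl, from 82.1 to 98.0 in clone1, from 69.2 to 87.3 in clone19 and from 62.1 to 69.8 in Rec. Clone1 was above Fh1_fl_fl in every library, whereas clone19 overlapped both. Mafg rose by 0.40 on the log2 scale in clone1 (SE 0.07, edgeR adjusted p = 6.3e-06) and by 0.20 in clone19 (SE 0.07, adjusted p = 0.00952). The clone19 call was lost with scaling to library totals (0.08, edgeR adjusted p = 0.363) and with no filter on low counts (adjusted p = 0.0661). In Rec the log2 fold change was -0.05 (95% interval -0.19 to 0.09, edgeR adjusted p = 0.5). The neighbour Sirt7 on the same strand shares 124 exonic bases with Mafg. Sirt7 averaged 20.6 CPM for Fh1_fl_fl, 18.4 for clone1, 14.4 for clone19 and 21.0 for Rec. Its part in the Mafg counts was not tested.

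BACH1 and BACH2 repress ARE genes in partnership with small MAF proteins, and heme binding releases them from DNA. Bach1 (ENSMUSG00000025612; chromosome 16, 87698945 to 87733346, plus strand) was 43.0, 44.1, 41.2, 42.5 and 47.0 CPM in Fh1_fl_fl and 40.7, 52.0, 59.4, 54.5 and 50.7 CPM in clone1. The clone19 levels were 34.7, 33.5, 36.9, 30.4 and 37.7 CPM, and those of Rec 33.1, 26.0, 28.2, 34.4 and 31.5 CPM. Clone1 straddled Fh1_fl_fl, and all libraries of clone19 and Rec lay below it. Bach1 fell by 0.33 on the log2 scale in clone19 (SE 0.09, edgeR adjusted p = 0.00158) and by 0.51 in Rec (SE 0.09, adjusted p = 1.02e-05). In clone1 the log2 fold change was 0.24 (SE 0.09, edgeR adjusted p = 0.0134). The clone1 call was lost without clone1 replicate 3 (0.18, adjusted p = 0.06) and with scaling to library totals (0.10, adjusted p = 0.318).

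Bach2 (ENSMUSG00000040270; chromosome 4, 32238804 to 32586108, plus strand), best known from B lymphocytes, was the rarest of the 10 regulators per kilobase in every group. Its level was 7.84, 6.02, 7.54, 7.52 and 8.43 CPM in Fh1_fl_fl and 0.299, 0.678, 0.550, 1.37 and 0.434 CPM in clone1, which rests on 3, 7, 5, 9 and 5 counts. In the clone19 libraries it stood at 7.47, 4.61, 4.38, 5.12 and 8.29 CPM, and in Rec at 6.45, 2.95, 4.74, 3.88 and 3.82 CPM. Clone1 was far below the rest, and clone19 overlapped both Fh1_fl_fl and Rec. Bach2 fell 12.3-fold in clone1 (log2 fold change -3.62, SE 0.28, edgeR adjusted p = 6.29e-12), a larger absolute change than in 95.7% of tested genes. In Rec it fell by 0.79 on the log2 scale (SE 0.19, edgeR adjusted p = 0.000582). The clone19 log2 fold change was -0.33 (95% interval -0.72 to 0.06, edgeR adjusted p = 0.124). That value was called at -0.50 without clone19 replicate 5 (adjusted p = 0.0283) and at -0.45 with scaling to library totals (adjusted p = 0.042). Rec lay below clone19 by a log2 fold change of -0.46 (edgeR adjusted p = 0.048), a call lost in 15 of 28 alternative settings, with -0.29 and adjusted p = 0.234 without clone19 replicate 5.

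**Figure D2:**
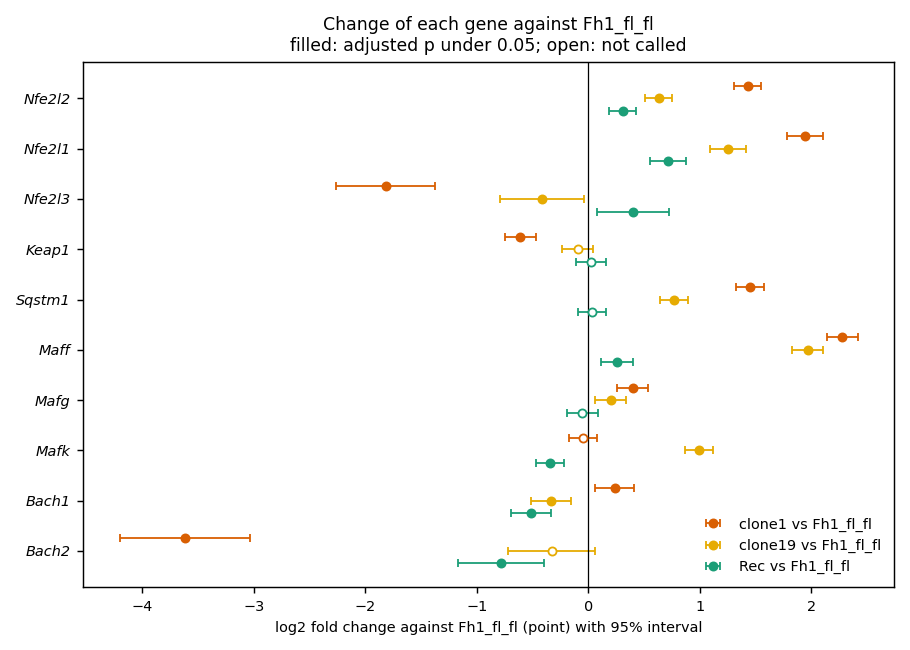
Log2 fold change of each of the 10 regulators (95% interval, edgeR) for clone1, clone19 and Rec against the same 5 Fh1_fl_fl libraries, with filled points where the adjusted p is under 0.05. Maff, Nfe2l1, Sqstm1 and Nfe2l2 lie to the right of 0 in both clones, while Bach2 and Nfe2l3 lie far to the left in clone1, at -3.62 and -1.82.

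When Rec was set against each clone, 10 of the 10 regulators differed from clone1, 3 higher and 7 lower, with 77.9% of all genes called (39.7% higher and 38.1% lower). Against clone19, 8 differed, 1 higher and 7 lower, with 73.8% of all genes called (35.8% higher and 38% lower). Nfe2l2, Nfe2l1, Sqstm1, Mafg, Mafk and Maff were lower in Rec than in both clones, and Nfe2l3 was higher than in both. Maff fell from clone1 by 2.02 on the log2 scale and from clone19 by 1.71 (SE 0.07 each, edgeR adjusted p = 5.48e-20 and 5.28e-18). Sqstm1 fell from clone1 by 1.41 and from clone19 by 0.73 (edgeR adjusted p = 2.22e-17 and 3.16e-11). Bach2 was higher in Rec than in clone1 by 2.83 (SE 0.31, edgeR adjusted p = 5.15e-09). For Keap1 against clone19 the log2 fold change was 0.12 (95% interval -0.01 to 0.26, edgeR adjusted p = 0.1), and for Bach1 it was -0.18 (-0.36 to 0.01, adjusted p = 0.0863). The level in Rec was above Fh1_fl_fl for Nfe2l2, Nfe2l1, Nfe2l3 and Maff and below it for Mafk, Bach1 and Bach2.

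The libraries of the 2 groups did not overlap for 8 of the 10 regulators in clone1 against Fh1_fl_fl (65.5% of all tested genes), for 6 in clone19 (59.0%) and for 5 in Rec (58.3%). Between Rec and clone1 all 10 were apart (62.9%), and between Rec and clone19 6 were (57.5%). Between the clones 9 were apart, all but Mafg (45.3%). Set directly against each other by the edgeR test, clone1 and clone19 differed for 10 of the 10 regulators, 6 higher and 4 lower in clone1, with 65.1% of all genes called (31.6% higher and 33.5% lower).

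Levels per kilobase of exon placed Sqstm1 first and Nfe2l1 second in every group. The length is that of all annotated exons of a gene together, which may differ from that of the transcripts present. Ranks, sums, shares and ratios between genes depend on it. The 3 small MAF genes together gave 34.6 ± 1.5 CPM per kilobase for Fh1_fl_fl, 83.0 ± 2.61 for clone1, 81.1 ± 2.15 for clone19 and 34.1 ± 1.94 for Rec (mean ± SD, n = 5). The libraries of the clones overlapped in this sum (79.5 to 86.3 in clone1 and 79.5 to 84.9 in clone19) but not in the shares of Maff and Mafk. Maff made up 33.7% ± 1.69 of it for Fh1_fl_fl, 68.1% ± 1.42 for clone1, 56.2% ± 2.88 for clone19 and 40.7% ± 2.71 for Rec. Mafk made up 12.7% ± 0.511 in clone1 and 26.7% ± 1.78 in clone19, against 31.4% ± 0.548 in Fh1_fl_fl. The Mafg share overlapped between the clones (clone1, 17.9% to 20.7%; clone19, 15.5% to 18.3%). The 3 activators summed to 55.0 ± 3.01 CPM per kilobase for Fh1_fl_fl, 178 ± 7.20 for clone1, 108 ± 5.96 for clone19 and 79.8 ± 5.49 for Rec. The mean share of Nfe2l1 in that sum was 51.8% ± 2.54 for Fh1_fl_fl, 61.5% ± 2.13 for clone1, 62.9% ± 3.71 for clone19 and 58.8% ± 1.85 for Rec, and single Fh1_fl_fl libraries ran from 47.7% to 54.1%.

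The ratio of Nfe2l2 to Keap1 mRNA per kilobase was 2.58 ± 0.124 for Fh1_fl_fl, 10.6 ± 1.1 for clone1, 4.31 ± 0.582 for clone19 and 3.14 ± 0.365 for Rec (mean ± SD, n = 5). The Sqstm1 to Keap1 ratio was 17.5 ± 0.700, 73.1 ± 4.59, 32.0 ± 1.68 and 17.7 ± 1.79 in the same order. Both ratios were highest in clone1, where the numerator was high and Keap1 was low. The Nfe2l2 to Bach1 ratio was 3.59 ± 0.231 for Fh1_fl_fl, 8.33 ± 1.59 for clone1, 7.03 ± 0.837 for clone19 and 6.36 ± 0.693 for Rec. These ratios compare mRNA levels and say nothing of the proteins.

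**Figure D3:**
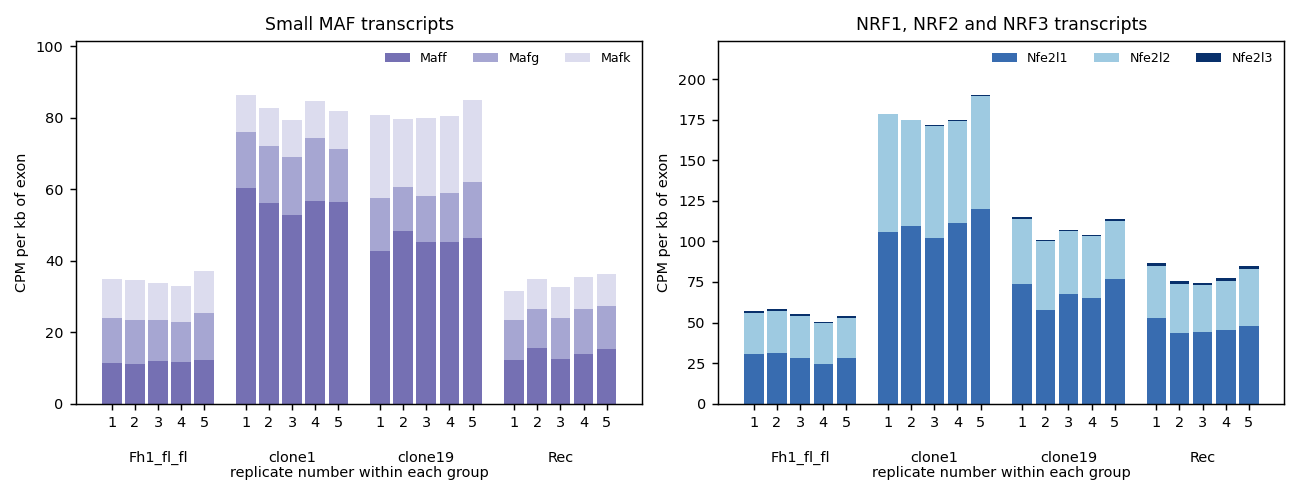
Summed level of the small MAF genes and of the 3 activators per kilobase of exon (CPM per kilobase, 1 bar per library, stacked by gene from 0). The small MAF sum averages 83.0 in clone1 and 81.1 in clone19, with Maff as the largest piece in every library of both.

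The promoters of the regulators were searched because Maff, Nfe2l1, Sqstm1, Nfe2l2 and Mafg were called higher in both clones. Windows of 250 bases before each RefSeq transcript start (assembly GRCm38.p6) were read on both strands for the ARE core TGACNNNGC, and all 10 genes had a window. A match was found for 4 of the 10, Nfe2l2, Mafg, Mafk and Maff, against 11.5% of 27025 genes with a window. A gene counted if any of its windows held a match, and Nfe2l1 and Maff had several windows. The sites are shown with 10 bases on either side of the core, 5′ to 3′ on the strand that carries it, with the core in capitals.
Nfe2l2, chr2:75704885-75704913, minus strand: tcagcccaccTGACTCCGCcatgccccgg
Mafg, chr11:120633751-120633779, plus strand: ctcgccgggtTGACCGTGCtcctgcagag
Mafk, chr5:139791513-139791541, minus strand: tccccagtacTGACACCGCttccgggatc
Maff, chr15:79346499-79346527, plus strand: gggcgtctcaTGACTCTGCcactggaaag
The cores lie 240 to 232 bases before a RefSeq start in Nfe2l2, 222 to 214 in Mafg, 13 to 5 in Mafk and 112 to 104 in Maff. The Maff core is in the window that begins farthest upstream, at 79346371, and its other windows hold no ARE core match. By the GENCODE bounds the Mafk site lies inside the gene and the others outside. The window of Bach2 (chromosome 4, 32417185 to 32417434) also lies inside the GENCODE gene. A match is a description of letters and not a measured binding site. Of these 4 genes, Nfe2l2, Mafg and Maff were called higher in both clones, and Mafk in clone19. Of all tested genes 38% were called higher in clone1 and 36.8% in clone19. The Mafg call in clone19 was lost with scaling to library totals and with no filter on low counts. A link between a match and a rise was not tested. Sqstm1 and Nfe2l1 rose in both clones with no match in any of their windows, which says only that these letters are not in them. Other motifs gave TGAGTCA in none of the 10 (5.16% of genes) and TGACGTCA in 1, Maff (1.77%). The short ACGTG was found in 5 of the 10, Keap1, Maff, Mafg, Mafk and Nfe2l1, against 18.5% of genes.

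Genes known to act on the circuit were then counted by function, each list against Fh1_fl_fl in the same fit. The median log2 fold change of all tested genes was -0.03 in clone1, 0.00 in clone19 and -0.03 in Rec. Each count stands beside the shares of all genes called in these comparisons: 38% higher and 40.5% lower in clone1, 36.8% and 36.1% in clone19, and 33.4% and 37.4% in Rec. The difference of a list from these shares was not tested. A list names a process and not a direction of action, so its counts do not show whether that process rose or fell. Of 14 genes of KEAP1-CUL3 and other NRF2 degradation, 6 rose and 4 fell in clone1 (median 0.02), 4 rose and 4 fell in clone19 (0.00) and 5 rose and 3 fell in Rec (0.01). With scaling to library totals the counts were 6 and 4 in clone1 (median -0.12), 2 and 7 in clone19 (-0.12) and 4 and 6 in Rec (-0.12). Cul3, the scaffold of the ligase that KEAP1 serves, rose from 223 ± 8.66 CPM (Fh1_fl_fl) to 336 ± 24.0 (clone1) and 370.1 ± 22.1 (clone19) (mean ± SD, n = 5). Skp1a, an adaptor of SCF ligases, fell by 0.47 and 0.75 on the log2 scale in the clones (edgeR adjusted p = 6.03e-05 and 8.27e-08). Gsk3a, a kinase that marks NRF2 for a second route of destruction, rose by 0.34 in each (adjusted p = 2.13e-05 and 2.12e-05).

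Of 12 genes listed as KEAP1 binding partners, 7 fell and 3 rose in clone1 (median -0.49), 7 fell and 4 rose in clone19 (-0.50), and 4 fell and 5 rose in Rec (0.09). With library totals 5 fell and 4 rose in Rec (median -0.05). Dpp3, a peptidase whose ETGE motif competes with NRF2 for KEAP1, fell from 263 ± 15.5 CPM to 119 ± 10.0 (clone1) and 127 ± 12.6 (clone19), and was 315 ± 20.4 in Rec. Amer1 fell by 1.06 and 1.14 on the log2 scale in clone1 and clone19 (edgeR adjusted p = 3.83e-08 and 2.38e-08). Cdkn1a, the cell cycle inhibitor p21, is in the list although it binds NRF2 and not KEAP1, and it fell by 1.47 and 1.05 (edgeR adjusted p = 4.01e-15 and 6.95e-12).

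Among 15 genes listed as coactivators and kinases of NRF2, 6 rose and 7 fell in clone1 (median -0.13), 6 rose and 6 fell in clone19 (0.11) and 6 rose and 5 fell in Rec (0.12). With library totals 5 rose and 7 fell in clone19 (median -0.01) and 3 rose and 7 fell in Rec (-0.02). The list also holds the deacetylases Hdac1 and Sirt1, although it is named for coactivators and kinases, and both fell in both clones. Hdac1 was 79.6 ± 4.36 CPM for Fh1_fl_fl, 28.9 ± 2.91 for clone1 and 31.4 ± 3.06 for clone19. Sirt1 was 27.2 ± 1.1, 8.34 ± 1.48 and 14 ± 2.38 CPM in the same order. Med16, a Mediator subunit that contacts NRF2, fell by 0.87 in clone1 and 0.60 in clone19 (edgeR adjusted p = 6.39e-07 and 0.000128). Of 12 genes of NRF1 maturation, 3 rose and 8 fell in clone1 (median -0.32), 3 rose and 4 fell in clone19 (-0.15) and 3 rose and 5 fell in Rec (-0.06). Ddi2, the protease that cuts NRF1 free, fell from 37.1 ± 0.989 CPM (Fh1_fl_fl) to 16.2 ± 1.61 (clone1) and 11.9 ± 2.11 (clone19). Ube4a fell from 72.8 ± 7.21 to 18.7 ± 3.14 and 33.3 ± 4.08 CPM. Sel1l, part of the retrotranslocation complex of the endoplasmic reticulum, rose by 0.42 and 0.68 on the log2 scale (edgeR adjusted p = 0.000548 and 1.31e-06). Nfe2l1 mRNA was thus high in clones in which Ddi2 mRNA was low.

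Of the 32 proteasome subunit genes, the best known targets of NRF1, 10 rose and 10 fell in clone1 (median 0.02) and 9 rose and 6 fell in clone19 (-0.02). In Rec 26 rose and 1, Psmd8, fell (median 0.50); Psmd8 was named after its values were seen. The directions depended on scaling in the clones: with library totals 7 rose and 16 fell in clone1, 2 rose and 14 fell in clone19, and 23 rose and 3 fell in Rec. Psmc6 rose in all 3 comparisons, from 167 ± 13.7 CPM to 251 ± 15.6 in clone1, 281 ± 49.0 in clone19 and 311 ± 23.2 in Rec. Psma5 fell by 0.90 in clone1 and 0.80 in clone19 (edgeR adjusted p = 1.63e-07 and 1.56e-06). Psmd6 was 89.6 ± 4.22 CPM for Fh1_fl_fl, 54.7 ± 3.75 for clone1, 74.7 ± 10.6 for clone19 and 216 ± 18.7 for Rec. The proteasome list therefore did not follow the order of Nfe2l1, which was highest in clone1.

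Of 10 genes of BACH degradation and heme sensing, 7 rose and 3 fell in clone1 (median 0.29), 5 rose and 3 fell in clone19 (0.15) and 2 rose and 2 fell in Rec (-0.01). With library totals 5 rose and 5 fell in clone19 (median 0.02), and 2 rose and 4 fell in Rec (-0.15). Slc48a1, a heme transporter, was 49.8 ± 1.69 CPM for Fh1_fl_fl, 554 ± 49.2 for clone1, 142 ± 2.43 for clone19 and 134 ± 6.65 for Rec. Nr1d1, a nuclear receptor that binds heme, rose from 15.4 ± 1.1 to 108 ± 8.52 CPM in clone1 and 71.7 ± 12.2 in clone19. Its log2 fold change in Rec was 0.08 (edgeR adjusted p = 0.538). Fbxl17, which marks BACH1 for destruction, fell by 0.59 and 0.65 on the log2 scale in the clones (edgeR adjusted p = 9.57e-08 and 3.07e-08).

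Of the further CNC and large MAF factors, Nfe2, Mafa and Nrl were too low to test. Maf, a large MAF factor with its own activation domain, was 16.4 ± 2.01 CPM for Fh1_fl_fl, 101 ± 4.11 for clone1, 51.8 ± 2.27 for clone19 and 8.43 ± 1.51 for Rec. Maf thus rose in both clones and fell in Rec (log2 fold change -0.96, edgeR adjusted p = 2.37e-09).

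Sqstm1 belongs to the autophagy receptors, and of 15 other receptors and ATG8 proteins 9 rose and 5 fell in clone1 (median 0.50), 6 rose and 6 fell in clone19 (0.05) and 2 rose and 9 fell in Rec (-0.26). With library totals 4 rose and 7 fell in clone19 (median -0.07). Gabarapl1, an ATG8 protein, rose from 71.6 ± 5.60 CPM (Fh1_fl_fl) to 336 ± 7.31 (clone1) and 164 ± 6.01 (clone19), and was 69.0 ± 2.89 in Rec. Map1lc3b, the ATG8 protein LC3B, fell by 0.68, 0.87 and 0.97 on the log2 scale in clone1, clone19 and Rec. Wdfy3 fell by 0.75, 1.51 and 0.94 in the same order. Members of the ATG8 family hence moved in opposite directions in the same clones.

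Of 35 tested NRF2 target genes, 28 rose and 4 fell in clone1 (median 1.67), 19 rose and 12 fell in clone19 (0.48) and 15 rose and 13 fell in Rec (0.11). Gpx2, Gstp1 and Ces1d of the list were too low to test. In Rec the median was -0.02 with scaling to library totals, and without clone19 replicate 3 the clone19 counts were 19 and 11. Slc7a11, the cystine importer, was 9.38 ± 3.74 CPM for Fh1_fl_fl, 657 ± 104 for clone1, 160.0 ± 4.62 for clone19 and 117 ± 18.3 for Rec. Hmox1, the heme-degrading enzyme that is also a classic BACH1 target, was 41.5 ± 3.13, 541 ± 62.0, 965 ± 40.8 and 107 ± 8.51 CPM in the same order. Hmox1 was higher in clone19 than in clone1, while Nfe2l2 was higher in clone1 and Bach1 was lower in clone19. In Rec, Bach1 averaged 30.6 CPM and Hmox1 107, against 34.6 and 965 in clone19. A link between the levels of these genes was not tested. Aldh3a1 had 1 count in all 5 Fh1_fl_fl libraries and 2411 in clone1, a ratio of CPM of 3562 with a 95% counting interval of 639 to 140732. In clone19 it had 16 counts, a ratio of 27.8 (4.32 to 1167), and these intervals cover counting error only.

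**Figure D4:**
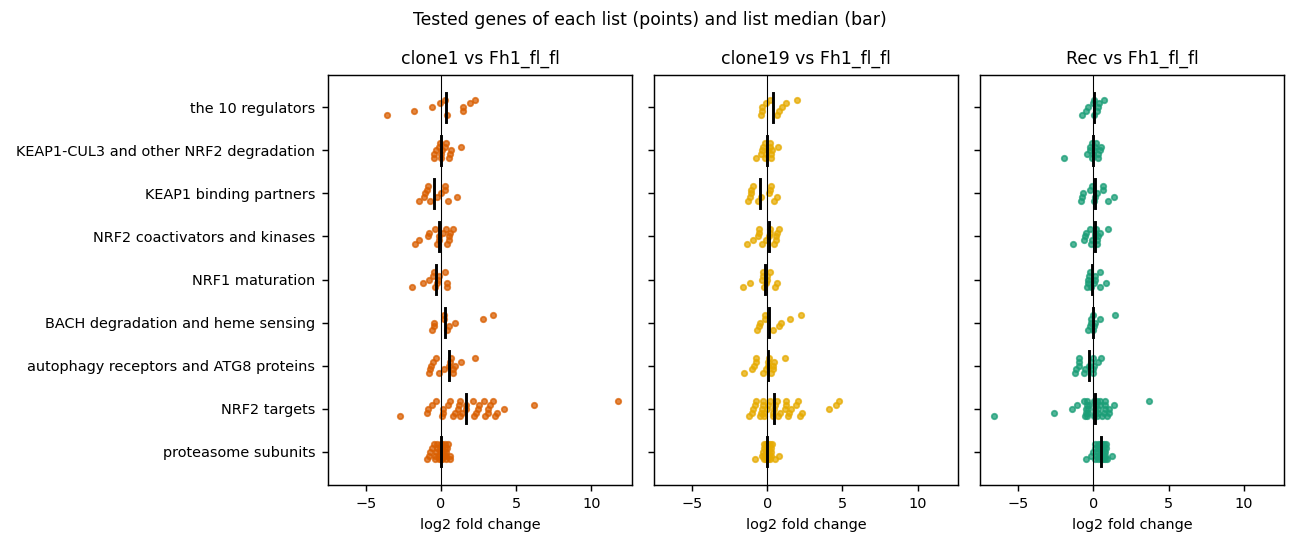
Log2 fold changes of the 10 regulators and of the tested genes of 8 lists for clone1, clone19 and Rec against Fh1_fl_fl, with 1 point per gene and a line at the list's median; the point farthest to the right is the fitted value of Aldh3a1, which rests on 1 count in Fh1_fl_fl. The NRF2 targets have medians of 1.67 in clone1 and 0.48 in clone19, and the proteasome subunits sit at 0.02 and -0.02 in the clones and at 0.50 in Rec.

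Neighbouring genes were examined to show whether each regulator moved with the chromosome segment around it. Within 5 Mb of Bach2, 20 other genes were tested, with a median log2 fold change of 0.08 in clone1, and 0 of the 20 differed as far as Bach2. Around Nfe2l2, 53 neighbours had a median of 0.10 in clone1, and 16 of them differed at least as far as it did. Around Maff 12 of 165 neighbours did so in clone1, and around Nfe2l1 28 of 176. In clone19 the numbers were 13 of 20 for Bach2, 24 of 53 for Nfe2l2, 14 of 165 for Maff and 36 of 176 for Nfe2l1. In clone1 those 4 genes stood away from the median of their neighbourhood. Keap1 did not stand as far from its own: its 71 neighbours had a median of -0.36 in clone1 and 38 of them differed at least as far. Over the 720 tested genes of chromosome 9 the clone1 median was -0.30, against -0.03 over all genes. For Bach1 in clone1 the 44 neighbours had a median of 0.28, close to its own 0.24. Around Mafk the 142 neighbours had medians of -0.65 in clone1 and -0.24 in clone19, where Mafk was at -0.05 and 0.99. The part of these shared shifts in the Keap1 and Bach1 values was not tested.

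**Figure D5:**
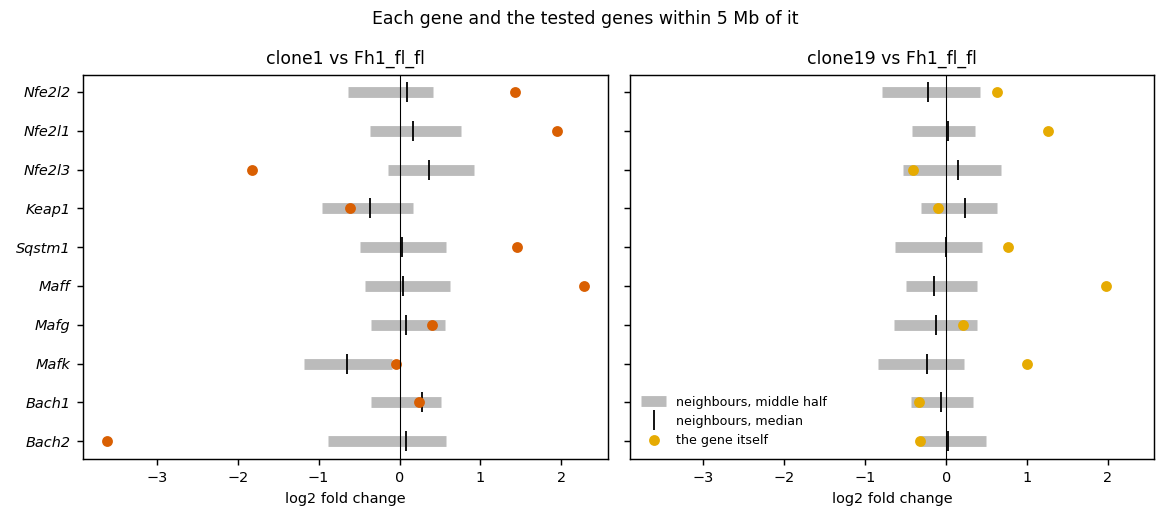
Log2 fold change of each of the 10 regulators (point) and of the tested genes within 5 Mb of it (bar from the 25th to the 75th percentile, line at the median) in clone1 and clone19 against Fh1_fl_fl. Bach2 lies far to the left of its neighbours in clone1, whereas Keap1, at -0.61, lies within the bar of neighbours whose median is -0.36.

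The pattern of Nfe2l2 over the 4 groups was compared with that of other genes by the root mean square difference of its 4 centred group means on the scale of log2(CPM + 0.5). Among the 3361 tested genes whose group means spanned at least as much as those of Nfe2l2, the nearest were Sdha (0.0427; a succinate dehydrogenase subunit), Spry2 (0.0545; a feedback inhibitor of receptor tyrosine kinase signalling) and Fastkd1 (0.0776; a mitochondrial RNA-binding protein). Sdha was 155 ± 4.90 CPM for Fh1_fl_fl, 420.5 ± 25.4 for clone1, 257 ± 15.4 for clone19 and 203 ± 11 for Rec. Spry2 was 10.6 ± 1.45, 29.6 ± 1.51, 17.7 ± 1.58 and 14.5 ± 0.932 CPM in the same order. Among the other regulators Sqstm1 was nearest to Nfe2l2, at 0.149, followed by Nfe2l1 at 0.236, and Bach2 was farthest, at 1.6. With 4 group means per gene these are descriptions of likeness.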

How the data were processed

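RNA sequencing of 20 libraries gave 4 groups of 5, taken with their replicate numbers from the sample titles. The authors deposited counts: 1 table per library of whole-number reads per Ensembl gene, not normalized, with 5 summary lines for unassigned reads, which were left out. Per the submitters' processing notes the build was GRCm38 and the tools DESeq 1.10.1, HTSeq 0.5.3p9 and TopHat2 2.0.4; the sources used here do not give their roles, the annotation or the strand setting. Reads with no feature were 3.28% to 6.73% of each library's total and reads that aligned more than once 28.8% to 40.3%, and these are in no gene count. Symbols and coordinates came from GENCODE M21 (37607 of 39179 identifiers matched) and promoter sequences from RefSeq (GRCm38.p6).

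With edgeR 4.0.16 (R 4.3.3), the 12671 genes that passed filterByExpr (26508 did not) were scaled by TMM and fitted with 1 quasi-likelihood model, a mean per group, over all 20 libraries. The 6 comparisons were tested with Benjamini-Hochberg adjustment over all tested genes, called at adjusted p under 0.05; the common biological coefficient of variation was 9.02%. The fit was tested on simulated data in which few genes changed, unlike these data, so it does not check the TMM scaling here. CPM use the TMM-scaled totals of tested genes. No libraries were identical within a group. Replicate numbers did not pair libraries. The alternatives comprised other scalings, filters, a robust fit, DESeq2 1.42.0, a replicate block, fits of the 2 groups only and leaving out each library. Genes named from each list were the 3 with the largest smaller absolute change of the clones, among those called with 1 sign in both clones, and 3 genes were named for the pattern nearest to Nfe2l2. The 10 regulators, the lists and the tests were chosen with earlier results of these data known. A gene of these lists is not reported here.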

Additional observations from a re-analysis of the deposited data

Results flagged for a closer look

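The effect against Fh1_fl_fl differed between the clones for all 10 regulators, tested directly by edgeR as clone1 against clone19 (adjusted p under 0.05), a comparison in which 65.1% of all tested genes were called. On the log2 scale, the clone1 effect minus the clone19 effect was 0.80 for Nfe2l2, 0.69 for Nfe2l1 and 0.68 for Sqstm1. It was 0.57 for Bach1, 0.31 for Maff and 0.20 for Mafg, all higher in clone1. The value was -3.29 for Bach2, -1.40 for Nfe2l3, -1.04 for Mafk and -0.51 for Keap1, all lower in clone1. For Keap1 this was close to its surroundings in the same comparison. Its 71 neighbours within 5 Mb had a median of -0.54, and the 720 tested genes of chromosome 9 had one of -0.53. The part of that shared shift in the Keap1 value was not tested. The Mafg value rests on clone19 replicate 2, without which it was 0.15 (adjusted p = 0.0514). Library ranges of the clones were apart for 9 of the 10, all but Mafg, against 45.3% of all tested genes. In 40 checks of single libraries for a value far from the others of its group, none was found.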

How the results depend on the processing

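Of 1680 values of single regulators under alternative settings, 1630 kept their direction and call, 40 lost the call, 7 gained one and 3 changed sign. The sign changes were of values with no call: Keap1 (-0.11) and Sqstm1 (-0.10) in Rec against Fh1_fl_fl with library totals, and Mafk in clone1, which ran from -0.071 to 0.022 with 1 library left out and had its highest value without Fh1_fl_fl replicate 5. The number of regulators called ranged over all settings from 8 to 9 in clone1, 6 to 9 in clone19 and 6 to 7 in Rec against Fh1_fl_fl, from 9 to 10 between the clones, from 7 to 9 for Rec against clone19, and was 10 for Rec against clone1 throughout. Scaling to library totals moved the median of all genes from -0.03 to -0.17 in clone1, from 0.00 to -0.12 in clone19 and from -0.03 to -0.17 in Rec. The share of calls that were higher went from 47.2% to 36.5% in Rec, and changed by less than 10 points in the clones. With library totals Mafg in Rec was called, at -0.18 (adjusted p = 0.035), and Nfe2l3 in Rec was not (0.27, adjusted p = 0.146). Without clone19 replicate 4, Bach1 was called lower in Rec than in clone19 (-0.22, adjusted p = 0.0417), and without clone19 replicate 5, Keap1 was called higher (0.16, adjusted p = 0.0438). The replicate block left 9, 8 and 7 regulators called in clone1, clone19 and Rec against Fh1_fl_fl and changed no call. Deviations of libraries with the same number correlated from -0.197 to 0.163 over 30 pairs, 6 of them over 0.1, and 6 of 20 libraries lay nearest their own number. The cause of these changes was not tested. Depth limits Bach2 and Nfe2l3 most, which in clone1 lay close to the level of 3 counts.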

Other observations

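The NRF2 targets that fell in clone1 were Gsr, Osgin1, Txn1 and Ptgr1, named after their values were seen. Gsr, glutathione reductase, was 397.6 ± 8.35 CPM for Fh1_fl_fl, 223 ± 16.9 for clone1, 174 ± 6.53 for clone19 and 308 ± 10.7 for Rec (mean ± SD, n = 5), and so was lower in both clones. Txn1, thioredoxin, was 281 ± 18.4 CPM for Fh1_fl_fl, 225 ± 26.8 for clone1, 274 ± 36.3 for clone19 and 530.5 ± 52.7 for Rec. Cbr3, a carbonyl reductase, was 5.02 ± 0.702 CPM for Fh1_fl_fl, 58.4 ± 6.67 for clone1, 2.89 ± 0.468 for clone19 and 3.89 ± 0.673 for Rec. Gclm, the modifier subunit of the enzyme that begins glutathione synthesis, was 91.1 ± 3.89, 406 ± 33, 77.5 ± 3.73 and 66.2 ± 4.78 CPM in the same order. Cbr3 and Gclm, also named after their values were seen, were called higher in clone1 and lower in clone19 than in Fh1_fl_fl. The same split held for G6pdx, Pgd, Idh1, Ephx1, Prdx1 and Gstm1 of the target list. Nfe2l2 mRNA was higher in both clones, and a link between these levels was not tested.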
